A study of Cricetulus griseus with 19 samples.

Results

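Abcb1 and Abcb1b encode P-glycoproteins, the multidrug efflux transporters of rodents, and were followed here across long-term cultures of a hamster cell line. Each gene was found through the RefSeq accession of its transcript target, and these are 2 of the 46718 targets quantified. The series holds 19 libraries of Paradaux cells, which derive from CHO-K1, a line established from Chinese hamster ovary. The labels give 1 library of the parental line, 4 of cultures with uncontrolled growth, 7 under negative feedback and 7 under paradoxical feedback, and name neither the agents nor the length of culture. The series title gives the line as Paradaux for all groups, and the labels do not say how the parental library differs from the rest other than by culture. As background, Paradaux carries a synthetic circuit in which a diffusible auxin signal acts on a drug-resistance protein and on an inducible caspase, so survival under a drug is part of how cell number is controlled. All groups come from 1 engineered line, so nothing here bears on other lines. The labels do not say how far the numbered cultures were propagated apart, so the p-values describe the spread among these libraries, and some of that spread may be technical.

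P-glycoprotein sits in the plasma membrane, binds hydrophobic drugs within the lipid bilayer and uses ATP hydrolysis to move them out of the cell. Primates have 1 such drug transporter gene, ABCB1, and rodents have a pair. A close relative, Abcb4, exports phosphatidylcholine into bile. In CHO cells selected with drugs, P-glycoprotein is the classical route to multidrug resistance, often by amplification of these neighbouring genes. In the gene table of assembly CriGri-PICRH-1.0, Abcb1, Abcb1b and Abcb4 followed each other in this order on the same chromosome, with a few other genes between them. Only names, gene types (such as protein coding) and gene order were taken from that table.

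The Abcb1 target was 4296 nt long, the Abcb1b target 4280 nt and the Abcb4 target 3905 nt. Levels are given in CPM, which scales counts to a common library total after TMM normalization, and in TPM, which also divides by target length. Where they were above 0, estimated counts of both P-glycoprotein targets included values that were not whole (to within 1e-06), as arises where a quantifier divides reads among similar transcripts. The split between Abcb1 and Abcb1b is therefore uncertain in a way that the counts do not show, and the sum of both is given beside each.

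Libraries held 9.91 to 13.2 M estimated counts. On the first principal component (33.2% of the variance) negative feedback cultures 3 to 7 stood apart from the rest, at 158 to 221, while cultures 1 and 2 lay at -161 and -141 among the uncontrolled cultures (-169 to -122). In cultures 3 to 7, 6.12 to 7.22% of counts fell on targets under 800 nt. This share was 13.3 and 14.1% in cultures 1 and 2, 12.2 to 13.4% with uncontrolled growth, 8.50 to 12.4% under paradoxical feedback and 11.8% in the parental library. For Abcb1 and Abcb1b, comparisons of negative feedback with another long-term condition are given with and without these cultures. Of 10 genes fixed as markers of the line, 2 matched a target. Tuba1b, an alpha-tubulin, reached 634 to 2819 CPM, whereas the target of Actb, the beta-actin of all cells, lay between 0 and 1.28 CPM and was listed at 0 in 10 of 19 libraries, among them all 4 uncontrolled ones. Tuba1b was called higher in the comparison of paradoxical feedback with uncontrolled growth (log2 fold change 1.57 ± 0.31, adjusted p = 0.0142 by edgeR), and neither marker was called in the other 3 comparisons. Whether a target listed at 0 means that its gene is unused was not tested, for Actb or for Abcb1b. The 14 markers of other cell types matched no target and were not analysed here.

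Of the 2 named P-glycoprotein targets, Abcb1 had the higher level in all 19 libraries. Its mean level per length was 19.6 TPM, above 87.4% of all targets and above 49.7% of the 334 named protein-coding targets. Abcb1b had a mean of 0.427 TPM. Per length, Abcb1 exceeded Abcb1b 24.9-fold in the mean TPM of uncontrolled cultures and 49.2-fold in the parental library. Only 528 of 46718 targets carry a name, and unnamed ones could hold reads of either gene. These ratios therefore compare 2 targets, not whole genes. Abcb4 had at most 2.25 estimated counts in any library and was listed at 0 in 14, so it lay under the floor of 3 counts everywhere and was not tested.

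In uncontrolled cultures 1 to 4, Abcb1 stood at 77.6, 85.1, 72.2 and 63.2 CPM. Under negative feedback it ran from 65.0 CPM in culture 2 to 81.5 CPM in culture 4, with a median of 74.4 CPM. This range lay within that of the uncontrolled cultures. Under paradoxical feedback Abcb1 ran from 35.2 to 70.6 CPM, with a median of 64.1 CPM. The lowest value belonged to culture 2, and the next above it was 54.5 CPM in culture 1. The parental library stood at 56.2 CPM, below all uncontrolled and all negative feedback cultures and within the range of paradoxical feedback.

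**Figure D1:**
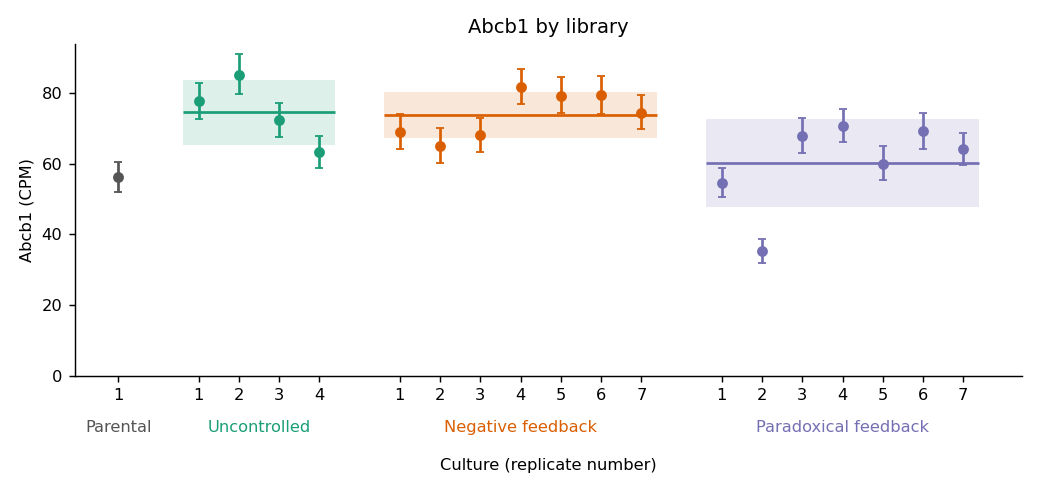
Abcb1 in CPM (vertical axis) for each library (horizontal axis, replicate number within its condition). Points carry 95% exact Poisson intervals, which cover counting error only, and lines with bands are the group mean ± SD. Paradoxical feedback culture 2, at 35.2 CPM, lies below every other library, and the ranges of the 3 long-term conditions overlap.

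By mean, the order was uncontrolled (74.5 ± 9.23 CPM, SD, n = 4), negative feedback (73.8 ± 6.53 CPM, SD, n = 7), paradoxical feedback (60.2 ± 12.4 CPM, SD, n = 7) and the single parental library. By the tests below, neither uncontrolled and negative feedback cultures nor negative and paradoxical feedback cultures differed past the threshold, and paradoxical feedback was not tested against the parental library alone. The spread between cultures exceeded counting error: the coefficient of variation of Abcb1 was 12.4, 8.85 and 20.6% in the 3 conditions, against 3.39, 3.42 and 3.85% expected from counts alone. For paradoxical feedback culture 2 the 95% exact Poisson interval was 31.9 to 38.6 CPM, which did not reach the interval of any other library. Without that culture the paradoxical feedback mean was 64.4 ± 6.18 CPM (SD, n = 6).

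The first comparison asked whether cells kept under negative feedback carried more or less of the transporter transcript than free-growing ones. Abcb1 differed by a log2 fold change of -0.01 ± 0.16 (standard error derived from the test statistic of the fit). This is a 0.99-fold level with a 95% interval from 0.786 to 1.25-fold (adjusted p = 0.964 by edgeR). Differences of either sign within this interval cannot be told from none. In the same comparison 9.76% of 28555 tested targets were called at an adjusted p under 0.05. Neither Abcb1 nor Abcb1b was among them. Without negative feedback cultures 3 to 7 the log2 fold change of Abcb1 was -0.15, and without cultures 1 and 2 it was 0.02, with adjusted p of 1 and 0.948 by edgeR.

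Under paradoxical feedback Abcb1 was 0.808-fold the uncontrolled level, with a 95% interval from 0.643 to 1.02-fold. The log2 fold change of -0.31 ± 0.16 did not pass (adjusted p = 0.223 by edgeR, unadjusted 0.0651), in a comparison where 6.43% of targets were called. Against negative feedback it was 0.816-fold, with an interval from 0.670 to 0.993-fold, and a log2 fold change of -0.29 ± 0.13. This had an unadjusted p of 0.0432 and an adjusted p of 0.267 by edgeR, where 0.27% of targets were called. An unadjusted p under 0.05 was found for 5033 of 28555 targets here and for 7381 against uncontrolled. Both comparisons share the paradoxical feedback libraries, and culture 2 weighs in each. Without it the log2 fold changes were -0.21 and -0.20, with adjusted p of 0.255 and 0.309 by edgeR. Between the feedback conditions the value was -0.15 ± 0.21 (adjusted p = 0.731 by edgeR) without negative feedback cultures 3 to 7 and -0.34 (0.107) without cultures 1 and 2. Of 7 paradoxical feedback cultures, 3 lay below the lowest uncontrolled culture, so the groups overlapped.

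Against the parental line, the mean of the long-term conditions was 1.23-fold for Abcb1, with an interval from 0.833 to 1.82-fold (log2 fold change 0.30 ± 0.27, adjusted p = 1.00 by edgeR). Here 5 of 28555 targets were called, or 0.0175%. With 1 parental library, this test assumes that the parental line varies like the cultures. Long-term cultures with a higher Abcb1 than the parental library numbered 16 of 18.

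**Figure D2:**
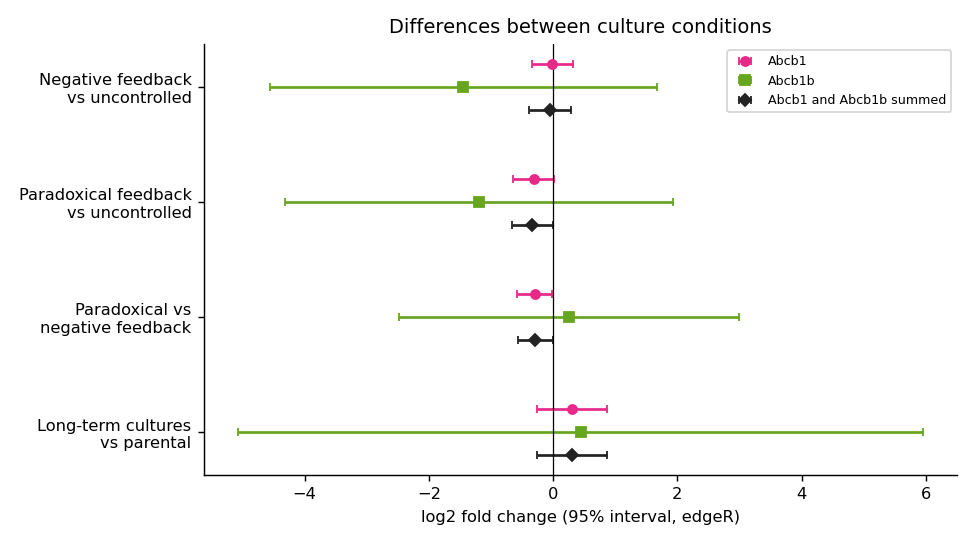
Log2 fold changes (horizontal axis) of Abcb1, Abcb1b and their sum in the 4 comparisons (vertical axis), with 95% intervals from edgeR. The intervals of Abcb1 and of the sum stay within 1 unit of 0 in all comparisons, while those of Abcb1b reach more than 1 unit to both sides of 0.

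Abcb1b was scarce and uneven. In uncontrolled cultures 1 to 4 it had 48.1, 24.0, 39.1 and 29.8 estimated counts, or 3.95, 2.28, 3.09 and 2.52 CPM. Negative feedback cultures 1 and 2, at 3.12 and 2.82 CPM, lay within this range. Culture 3 was at 1.04 CPM, culture 7 at 0.630 CPM, and cultures 4, 5 and 6 were listed at 0. All of cultures 3 to 7 thus lay below all uncontrolled cultures, and these are the cultures that stood apart on the principal component and in the share of short targets. The share of all targets that separated in this way was not counted. A count of 0 allows up to 3 counts, which is 0.232, 0.246 and 0.278 CPM in cultures 4, 5 and 6.

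Paradoxical feedback cultures were as mixed. Cultures 4 and 7 stood at 3.00 and 2.88 CPM, within the uncontrolled range. Culture 6 was at 1.84 CPM and culture 1 at 1.32 CPM. Cultures 2, 3 and 5 were listed at 0, with floors of 0.246, 0.272 and 0.294 CPM. Unlike under negative feedback, the low libraries did not lie together in the share of short targets: cultures 2, 3 and 5 had 8.91, 9.48 and 12.4% and cultures 4 and 7 had 9.79 and 8.50%. The parental library had 1.14 CPM, below all uncontrolled cultures. Abcb1b was thus above the floor in 13 of 19 libraries.

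**Figure D3:**
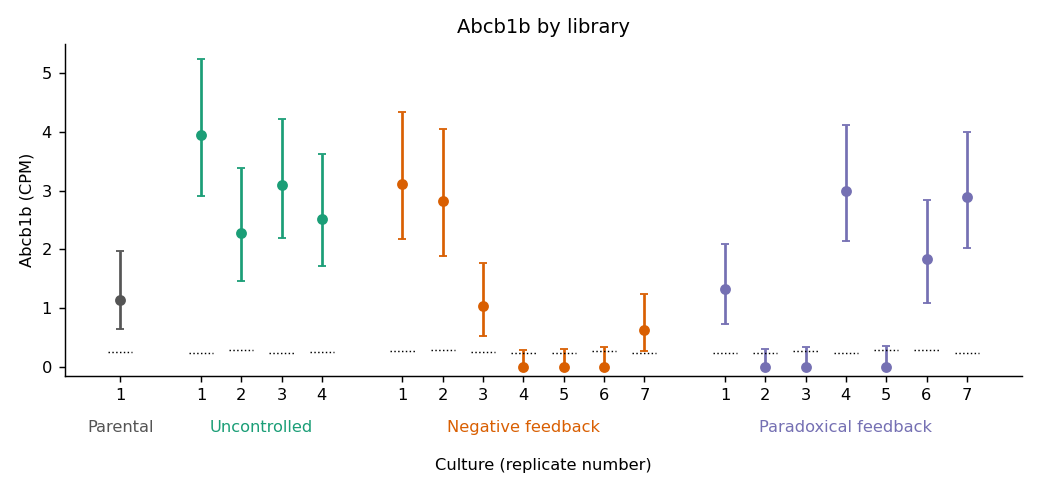
Abcb1b in CPM (vertical axis) for each library (horizontal axis, replicate number within its condition), with 95% exact Poisson intervals for counting error. Dotted ticks mark the level of 3 counts in each library. The 6 libraries listed at 0 are negative feedback cultures 4, 5 and 6 and paradoxical feedback cultures 2, 3 and 5.

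No comparison of Abcb1b between conditions passed. The log2 fold change was -1.44 ± 1.48 for negative feedback against uncontrolled (adjusted p = 0.519 by edgeR) and -1.19 ± 1.48 for paradoxical feedback against uncontrolled (0.667). Between both feedback conditions it was 0.25 ± 1.30 (0.968), and against the parental line 0.45 ± 2.61 (1.00). The 95% intervals were wide. For negative feedback against uncontrolled the interval ran from a log2 fold change of -4.56 to 1.68, so a fall or a rise of several-fold is within it. Without negative feedback cultures 3 to 7 that log2 fold change was 0.01, and without cultures 1 and 2 it was -3.15 (adjusted p = 1 and 0.139 by edgeR). Between the feedback conditions it was -1.19 without cultures 3 to 7 and 1.94 without cultures 1 and 2 (0.680 and 0.384). By limma-voom the first 2 values were -3.14 and -2.83 (adjusted p = 0.0900 and 0.170). With the short-target share as a covariate the first was -0.66 (adjusted p = 1 by edgeR). That share itself set cultures 3 to 7 apart, so this fit cannot separate the share from the division of cultures.

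The share of Abcb1b in the summed counts of both members removes the library scaling. It was 4.85, 2.61, 4.11 and 3.84% in uncontrolled cultures 1 to 4. Negative feedback cultures 1 and 2 had 4.33 and 4.16%. Culture 3 had 1.51%, culture 7 had 0.840% and the others 0, where the floor of 3 counts is 0.284 to 0.351%. Paradoxical feedback cultures 7 and 4 had 4.31 and 4.07%, and cultures 6 and 1 had 2.59 and 2.37%. Cultures 2, 3 and 5 were at 0, with floors of 0.401 to 0.699%. For the shares of 0, upper 95% exact Clopper-Pearson limits were higher, at 0.348 to 0.431% under negative and 0.492 to 0.856% under paradoxical feedback. The parental share was 1.98%, with a 95% exact Clopper-Pearson interval, from rounded counts, of 1.13 to 3.42%. The lowest uncontrolled share, 2.61%, had an interval of 1.67 to 3.85%.

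By exact two-sided permutation, the mean share was 2.30 percentage points lower under negative feedback than in uncontrolled cultures (means 1.55 and 3.85%, exact p = 0.0606). The mean share under paradoxical feedback, 1.91%, was 1.95 points lower than in uncontrolled cultures (exact p = 0.1). Both had a Benjamini-Hochberg adjusted p of 0.15 over the 3 comparisons, and the feedback conditions differed by 0.355 points (exact p = 0.752). With 4 against 7 libraries, the smallest p that the test can give is 0.00303. Without negative feedback cultures 1 and 2, a choice made after the data were seen, the first difference was 3.38 points (exact p = 0.00794, adjusted 0.0238). With 5 against 4 libraries this is the smallest p that the test can give. No share of cultures 3 to 7 overlapped the uncontrolled ones, but 11460 targets were called by edgeR on the same split. How many of all targets separated without overlap was not counted. Without cultures 3 to 7 the first difference turned to 0.397 points higher (exact p = 0.6). Paradoxical feedback was 1.43 points above negative feedback without cultures 1 and 2 (exact p = 0.169) and differed by -2.34 points without cultures 3 to 7 (exact p = 0.139). Whether any reads of Abcb1b were assigned to other targets in the libraries listed at 0 was not tested. Abcb1 was at 81.5, 79.2 and 79.3 CPM in negative feedback cultures 4, 5 and 6, the highest of that condition, and at 35.2, 67.9 and 59.9 CPM in paradoxical feedback cultures 2, 3 and 5.

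Summed over both members, the counts gave the same picture as Abcb1 alone. Little else was possible, since Abcb1b made up at most 4.85% of the sum in any library. Uncontrolled cultures had a sum of 77.5 ± 9.28 CPM (SD, n = 4). The sum was 74.9 ± 5.40 CPM (SD, n = 7) with negative feedback and 61.5 ± 13.1 CPM (SD, n = 7) with paradoxical feedback. The log2 fold changes were -0.05 ± 0.16 for negative feedback and -0.33 ± 0.16 for paradoxical feedback against uncontrolled, with adjusted p of 0.856 and 0.190 by edgeR. Between the feedback conditions it was -0.28 ± 0.14 (0.287). The unadjusted p for paradoxical feedback against uncontrolled was 0.0484 by edgeR. With both members kept apart, 7381 of 28555 targets had one under 0.05 in that comparison. Without paradoxical feedback culture 2 the sum differed by -0.23 from uncontrolled and by -0.18 from negative feedback, with adjusted p of 0.196 and 0.331 by edgeR. The difference between the feedback conditions was -0.18 (0.672) without negative feedback cultures 3 to 7 and -0.32 (0.140) without cultures 1 and 2.

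Per length the libraries were ordered differently. In TPM the sum stood at 22.3, 22.0, 19.0 and 18.3 in uncontrolled cultures 1 to 4. Negative feedback cultures 1 and 2 lay below these, at 17.1 and 17.4 TPM, and cultures 3 to 7 above them, at 24.1 to 28.8 TPM. Paradoxical feedback cultures ran from 10.3 to 22.3 TPM, with a median of 16.8, and the parental library was at 15.4 TPM. For a given target, TPM is the CPM without TMM, per kb of effective length, multiplied by a factor common to the whole library. Uncontrolled cultures had a factor of 0.984 to 1.03 and paradoxical feedback cultures one of 1.00 to 1.20. With negative feedback it was 0.960 and 0.989 for cultures 1 and 2 but 1.32 to 1.43 for cultures 3 to 7. The 5 libraries with the lowest share of short targets had the 5 highest factors. The factor applies to every target of a library alike, and Abcb1 in CPM was at 68.0 to 81.5 in cultures 3 to 7.

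**Figure D4:**
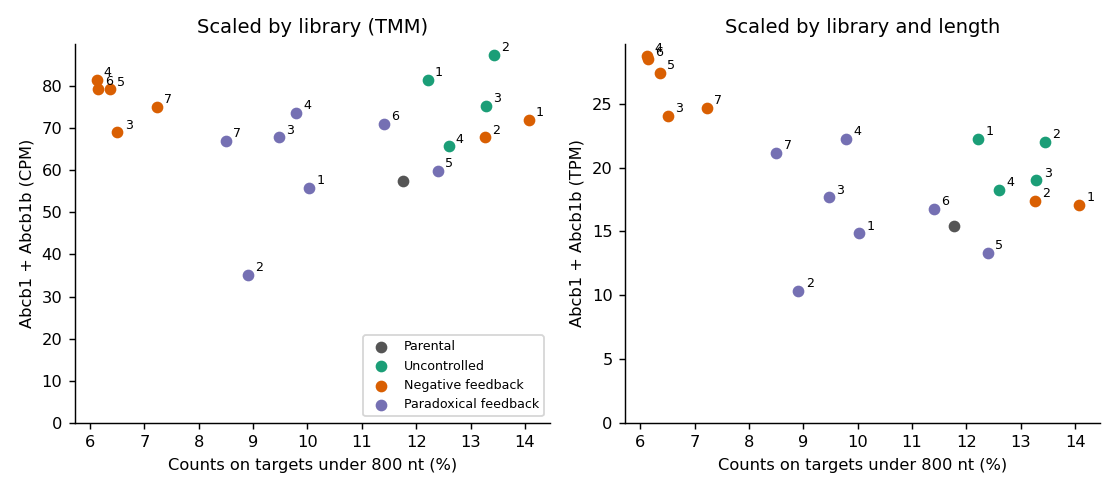
Sum of Abcb1 and Abcb1b against the percentage of a library's counts on targets under 800 nt, in CPM (left) and TPM (right), with replicate numbers beside the points. Negative feedback cultures 3 to 7, at 6.12 to 7.22% on the horizontal axis, lie within the range of uncontrolled cultures in CPM and above them in TPM.

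On the scale of log2(TPM + 0.1), paradoxical feedback was 0.54 below negative feedback for the sum, with means of 4.02 and 4.56 (exact two-sided permutation p = 0.0140, adjusted 0.0420 over 3 comparisons). Over all 28555 tested targets the median difference on this scale was -0.18. Each of the 7 paradoxical feedback cultures lay below negative feedback cultures 3 to 7, while 3 of the 7 lay above cultures 1 and 2, so the groups overlapped. What share of all targets separated in the same way from cultures 3 to 7 is not given here. The TPM factor, which all targets of a library share, did so too. Its highest value with paradoxical feedback was 1.20, and its lowest among negative feedback cultures 3 to 7 was 1.32. Without cultures 3 to 7 the difference was -0.095 (exact p = 0.75), and without cultures 1 and 2 it was -0.72 (adjusted p = 0.00758 by the exact test). The call was also lost on leaving out any 1 of negative feedback cultures 3, 4, 5, 6 and 7 or of paradoxical feedback cultures 1, 2, 3, 5 and 6, with adjusted p from 0.0577 to 0.0944 by the exact test. Against uncontrolled cultures the sum was 0.21 higher under negative feedback (exact p = 0.239, adjusted 0.239) and 0.33 lower under paradoxical feedback (exact p = 0.130, adjusted 0.195). The median over all targets was 0.23 in the former and 0.0073 in the latter. Without negative feedback cultures 1 and 2, chosen after the data were seen, the former was 0.39 (exact p = 0.00794, adjusted 0.0119). That p is the smallest possible with 5 against 4 libraries. Without cultures 3 to 7 the former turned to -0.24.

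The wider drug handling system could be followed only in part, because few of its genes matched a named target. Of 10 efflux ABC transporters other than the members, 1 matched, which is Abcb4, and of 25 other ABC proteins none did. Of 40 detoxification enzymes 4 matched and 3 were tested, the glutathione transferase Gstp1, the cytochrome P450 reductase Por and the thioredoxin reductase Txnrd1. None of these 3 was called in any of the 4 comparisons, in which 9.76, 6.43, 0.27 and 0.0175% of all targets were called, so a count of 0 among so few genes lies near the background. Under negative feedback against uncontrolled the log2 fold changes were -0.71 for Gstp1, 0.40 for Por and 0.25 for Txnrd1. Under paradoxical feedback they were 0.14, 0.25 and 0.43 in the same order. The median of the 3 was 0.25 in both comparisons, beside 0.04 and 0.02 over all tested targets. The pooled values hide a division. In negative feedback cultures 3 to 7 Gstp1 was at 136 to 214 CPM, Por at 22.7 to 28.1 and Txnrd1 at 1218 to 1372. Uncontrolled cultures had 385 to 412, 15.1 to 21.9 and 869 to 1087 CPM in the same order. Negative feedback cultures 1 and 2 had 396 and 412, 16.8 and 17.6, and 965 and 880 CPM. The share of all targets divided in this way was not counted. Of 32 genes reported to regulate Abcb1, 2 were tested, Ahr and Fos, and neither was called in any comparison.

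Ahr, the receptor for aryl hydrocarbons and indole compounds and a regulator of drug metabolism, followed the division among negative feedback cultures, and its target had shared reads. Uncontrolled cultures had 2.65 to 5.14 CPM of it. Negative feedback cultures 1 and 2 had 3.40 and 3.41 CPM, and the other 5 had 16.8 to 27.6 CPM. Under paradoxical feedback it ran from 1.27 to 13.1 CPM with a median of 3.86. The log2 fold change was 1.97 ± 0.67 for negative feedback against uncontrolled (adjusted p = 0.0684 by edgeR). It was called by DESeq2 (adjusted p = 0.0101) and by edgeR without negative feedback culture 1 (0.0225) or 2 (0.0254). For paradoxical feedback against uncontrolled the log2 fold change was 0.27 ± 0.62 (0.843), and without paradoxical feedback culture 7 it was -0.17. Between the feedback conditions it was -1.70 ± 0.54 (0.129 by edgeR, 0.0197 by DESeq2).

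P-glycoprotein is a glycosylated membrane protein that folds in the endoplasmic reticulum, and 7 of 17 genes fixed for folding and surface delivery of such proteins were tested. Under negative feedback 3 of 7 were called higher and none lower, against 8.65% of all targets called higher. The list was fixed with earlier results of these data known, so this count is not a test of enrichment. The median log2 fold change of the 7 was 1.00, against 0.04 over all tested targets, and is the value of Hyou1 alone. Among the 7, the target of Canx was listed at 0 in 15 of 19 libraries, including every uncontrolled one. Edem1, which directs misfolded glycoproteins to degradation, was at 1.11 to 2.79 CPM in uncontrolled cultures and at 1.65 to 49.2 CPM under negative feedback. Its rise (log2 fold change 3.85 ± 0.84, adjusted p = 0.0236 by edgeR) lay in cultures 3 to 7, at 24.3 to 49.2 CPM, and without them the log2 fold change was -0.20 (adjusted p = 1). With the short-target share as a covariate it was 0.55 (adjusted p = 0.903 by edgeR). That share was itself 6.12 to 7.22% in cultures 3 to 7 and 12.2 to 13.4% in uncontrolled cultures. For any gene, a fit with it therefore cannot separate the share from this division of cultures. Hyou1, a chaperone of the endoplasmic reticulum with shared reads, rose by 1.00 ± 0.28 (adjusted p = 0.0351). Its log2 fold change was 0.10 without cultures 3 to 7, and the call was lost without any 1 of the uncontrolled cultures or of negative feedback cultures 3 to 7, with adjusted p from 0.0614 to 0.108 by edgeR. Mgat1, which starts the processing of N-glycans to complex forms and had shared reads, was called as well. Its levels were 0 to 0.344 CPM without control, 0.240 and 0.290 CPM in negative feedback cultures 1 and 2, and 7.10 to 9.35 CPM in the other 5. Without any 1 of the uncontrolled cultures the calls of Edem1 and Mgat1 were lost, with adjusted p from 0.0525 to 0.0774 by edgeR. With the short-target share as a covariate Hyou1 was at 0.32 (adjusted p = 0.923) and Mgat1 had an adjusted p of 0.640. All 3 calls were also lost when only the groups compared were fitted, with adjusted p of 0.0798 for Edem1 and Mgat1 and 0.0802 for Hyou1.

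Under paradoxical feedback 1 of the 7 folding genes was called higher and 1 lower, against 4.93 and 1.5% of all targets. Mgat1 was higher, at 1.46 to 3.30 CPM (adjusted p = 0.0279 by edgeR), and the call was lost without any 1 of the uncontrolled cultures (0.0591 to 0.0904). Hspa5, the main Hsp70 chaperone of the endoplasmic reticulum, was lower, at 1071 to 2802 CPM against 4868 to 11184 CPM in uncontrolled cultures. Its log2 fold change was -1.99 ± 0.56 (adjusted p = 0.0431 by edgeR). In negative feedback cultures 3 to 7, too, Hspa5 lay below every uncontrolled culture, but in cultures 1 and 2 it did not, and that comparison did not pass (log2 fold change -0.78 ± 0.56, adjusted p = 0.347 by edgeR). The call for paradoxical feedback was lost on leaving out each uncontrolled culture in turn, and likewise each paradoxical feedback culture other than 4 (0.0613 to 0.127). Between the feedback conditions none of the 7 was called by edgeR, where 77 of 28555 targets, or 0.27%, were. At an unadjusted p under 0.05 there were 5033 targets.

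Likeness of pattern was measured as the root-mean-square difference in log2 CPM over the 19 libraries, each gene centred on its own mean, against 241 named coding targets for Abcb1 and 242 for Abcb1b. The nearest to Abcb1 were Elk3, an ETS-family transcription factor, at 0.26, Pigu, a subunit of the enzyme that attaches GPI anchors, at 0.27, and Cbx1, a heterochromatin protein, at 0.30. A profile with no variation at all would stand at 0.28, so Cbx1 was farther from Abcb1 than a flat line is, and Elk3 and Pigu were little nearer. The median named gene stood at 0.65. The nearest to Abcb1b were Selenos, Creld2 and Selenom, at 1.32, 1.35 and 1.39, where a flat profile would stand at 1.81 and the median gene at 2.00. As background, all 3 encode proteins of the endoplasmic reticulum, and Selenos acts in the removal of misfolded proteins. The share of such genes among the 242 was not counted, so no theme is drawn from them. Abcb1b was listed at 0 in 6 of the 19 libraries, and these weigh in the ranking. With RLE size factors in place of TMM, the transcription factor Atf4 took the place of Selenom, at 1.39.

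**Figure D5:**
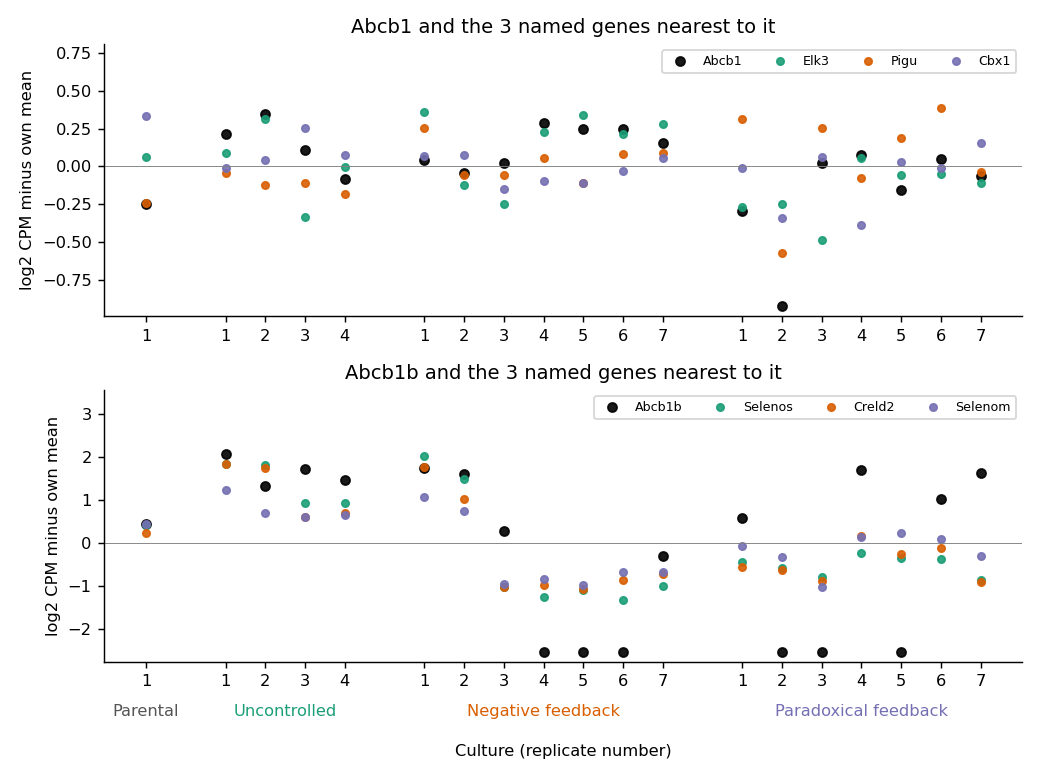
Log2 CPM minus the gene's own mean over the 19 libraries (vertical axis) for Abcb1 (upper) and Abcb1b (lower) and the 3 named genes nearest to each, by library (horizontal axis, replicate number within its condition). Abcb1 stays within 0.35 of 0 except in paradoxical feedback culture 2, at -0.92. Selenos, Creld2 and Selenom are above 0 with uncontrolled growth, as also for negative feedback cultures 1 and 2, and below 0 for negative feedback cultures 3 to 7.

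Abcb1b and Selenos were set side by side, as a description. Uncontrolled cultures had 102 to 192 CPM of Selenos. Negative feedback cultures 1 and 2 had 217 and 150 CPM, and the other 5 had 21.2 to 26.5 CPM. Under paradoxical feedback it was at 29.2 to 45.7 CPM in all 7 cultures, including cultures 4 and 7, where Abcb1b was within its uncontrolled range.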

How the data were processed

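PolyA RNA was sequenced, with NEBNext Ultra II libraries per the labels' protocols. Trim Galore and kallisto appear in the submitters' processing notes. Index, build and versions: not given in the sources used here. Estimated counts deposited by the authors are reads assigned to each transcript target. The deposited TPM values divide these by effective length, here target length minus 299 nt for Abcb1 and the same in all files, and scale to a common total.

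Targets carry accessions only. A RefSeq gene table named 528 of 46718 targets (334 protein coding), and no other named target belongs to Abcb1 or Abcb1b. No sequences are printed. Estimated counts were rounded, filtered with filterByExpr (28555 targets left), TMM-normalized, then tested in R 4.3.3 by edgeR 4.0.16 (quasi-likelihood, all 19 libraries, 1 coefficient per group). P-values were adjusted by Benjamini-Hochberg over all tested targets, and targets under 0.05 were called. The fit was tested on simulated data. Standard errors were derived from the same fit, as the absolute log2 fold change over the square root of the F statistic. The 95% intervals were built from them, and both are approximate. The sum replaced both members before the fit. Shares and summed TPM were compared by exact permutation over libraries, adjusted over 3 comparisons. Intervals and the floor of 3 counts cover counting error only; without molecular identifiers, reads of 1 molecule cannot be recognized. Alternatives were other scalings, no filter, unrounded counts, limma 3.58.1 (voom, and log2 TPM), DESeq2 1.42.0, a replicate block, the short-target share as covariate, only the groups compared, other pseudocounts and libraries left out.

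The members and lists were chosen with earlier results of these data known. Named genes are the members, tested ABC genes, Ahr, up to 4 called members of each other list per comparison, and the 3 nearest in pattern. Gstp1, Por, Txnrd1, Fos, Canx and Atf4 were named beyond the rule, to show which genes a count holds.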

Additional observations from a re-analysis of the deposited data

Results flagged for a closer look

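The summed level of Abcb1 and Abcb1b differed between paradoxical and negative feedback on the per-length scale. The difference on the log2(TPM + 0.1) scale was -0.54 (exact permutation p = 0.0140, adjusted 0.0420), with 7 cultures in each group. The same difference in TMM-scaled counts was -0.28 and did not pass (adjusted p = 0.287 by edgeR). The factor that turns counts per kb into TPM was 1.27 ± 0.207 under negative feedback (SD, n = 7) and 1.11 ± 0.0732 under paradoxical feedback (SD, n = 7), and its part in the difference was not tested beyond the values given here. No value of the members in a single library stood far enough from the rest of its group to be marked by Dixon's test, in 33 sets of values examined, and this includes Abcb1 in paradoxical feedback culture 2.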

How the results depend on the processing

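In the count and limma fits neither Abcb1, Abcb1b nor their sum was called under any alternative, in 32 alternatives for each comparison between long-term conditions and 30 against the parental line, which has no value without its only library or with only the groups compared. For paradoxical feedback Abcb1 kept its direction throughout, from -0.42 to -0.21 against uncontrolled and from -0.55 to -0.15 against negative feedback (log2). For negative feedback against uncontrolled, Abcb1 turned to 0.0051 without the filter, 0.24 on log2(TPM + 0.1), 0.235 on log2(TPM + 1), 0.018 without negative feedback cultures 1 and 2 (chosen after seeing the data), and -0.086 to 0.055 on leaving out single libraries. The sum turned to 0.210 and 0.203 on the TPM scales and ran from -0.12 to 0.012 without single libraries. Abcb1b turned to 0.0084 (negative feedback against uncontrolled) and -1.19 (between feedback conditions) without cultures 3 to 7. By limma-voom it was -3.14 and -2.83 for negative and paradoxical feedback against uncontrolled, and -0.66 for negative feedback with the short-target share as covariate. It turned to 0.00095 with the short-target share as covariate (paradoxical feedback against uncontrolled), to -0.71 by limma-voom and -0.12 without cultures 1 and 2 (parental), and ran from -0.11 to 0.79 without single libraries (between feedback conditions). The cause was not tested. The short-target share itself set negative feedback cultures 3 to 7 apart, so fits with it cannot separate the share from that division.

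The Abcb1b share between feedback conditions ran from -0.045 to 0.82 points without single libraries and was -2.34 without cultures 3 to 7. For negative feedback against uncontrolled it was 0.397 without them and -3.38 without cultures 1 and 2. The summed TPM difference was -0.095 without cultures 3 to 7 and -0.62 to -0.43 without single libraries. Against uncontrolled cultures it was -0.235 without cultures 3 to 7 and 0.388 without cultures 1 and 2.

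Ahr turned to -0.17 with the covariate and -0.30 without cultures 3 to 7 for negative feedback, and Edem1 to -0.20. For paradoxical feedback Ahr turned to -0.0086 by limma-voom, -1.07 with the covariate and ran from -0.17 to 0.43 without single libraries, and between feedback conditions to 0.59 without cultures 3 to 7. Edem1 was called in 23 of 32 alternatives, Hyou1 in 18, Hspa5 in 20, and Mgat1 in 24 (negative) and 26 (paradoxical). With the block, adjusted p for negative feedback was 0.205 for Edem1 and Mgat1 and 0.212 for Hyou1.

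Counts of called targets moved widely. For negative feedback against uncontrolled (2787) they were 6374 by DESeq2, 5039 by limma-voom, 6 with the covariate, 5149 and 6811 on TPM + 0.1 and + 1, 13 without cultures 3 to 7, 11460 without 1 and 2, 10 with only the groups compared and 7 to 6938 without single libraries. For paradoxical feedback against uncontrolled (1835) they were 4773 by DESeq2, 1145 with the covariate, 4926 without cultures 3 to 7, 5675 without 1 and 2, 4956 with only the groups compared and 127 to 3204 without single libraries. Between feedback conditions (77) they were 11 with RLE, 42 by library size, 2 without the filter, 1772 by DESeq2, 297 by limma-voom, 697 with the covariate, 355 unrounded, 2 and 31 on TPM, 2454 without cultures 3 to 7, 5937 without 1 and 2, 0 with only the groups compared and 0 to 989 without single libraries. Against the parental line (5) they were 288 by DESeq2, 100 by limma-voom, 12 with the covariate, 39 unrounded, 52 and 54 on TPM, 8 without cultures 3 to 7, 51 without 1 and 2 and 5 to 11 without single libraries.

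Same-numbered libraries' deviations from their group means correlated at -0.156 to 0.107, so the numbers were not taken to pair the libraries. With the replicate number as a block, 4, 3, 0 and 0 targets were called in these comparisons in the same order. Abcb1 was then at -0.10, -0.41, -0.31 and 0.24, Abcb1b at -1.42, -0.91, 0.52 and 1.28, and Ahr turned to -0.21 for paradoxical feedback.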
